A study of Mus musculus with 6 samples.

Results

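The p200 PYHIN family was examined in bone marrow mesenchymal stem cells (BMMSCs) of C57BL/6 mice. The family was taken as the rows of the deposited expression table that carry 1 of 7 gene symbols, namely Ifi202b, Ifi203, Ifi204, Ifi205, Mnda, Mndal and Pyhin1, and all 7 were found among the 36870 symbols listed. They were chosen by family membership and by position in 1 gene cluster of chromosome 1, but do not take in every such row. A further 6 PYHIN rows, most of them in the same cluster, are described separately. In what follows, p200 genes and members mean the 7 only. RNA-seq libraries came from 3 samples of control BMMSCs and 3 samples of BMMSCs treated with siRNAs against both Tet1 and Tet2, which encode dioxygenases that oxidise 5-methylcytosine in DNA. The cells were the adherent fraction of flushed femur and tibia marrow, grown for 14 days after the non-adherent cells were washed off, and the labels give passage 2 whereas the methods give passage 1. Control cells received a non-targeting siRNA according to the labels and vehicle according to the sequencing methods. No cell sorting is described for these libraries, and the labels do not say whether the 3 samples of a group came from separate cultures or animals, so p-values measure only the spread between these samples, which may be technical. The age of the mice and the time between siRNA treatment and RNA extraction are not given in the sources used here.

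PYHIN proteins join an amino-terminal PYRIN domain, used for contacts between proteins, to 1 or more carboxy-terminal HIN domains, which bind DNA. The genes lie side by side on mouse chromosome 1, most of them are induced by interferon through STAT and IRF factors, and they are known best from macrophages and other blood cells, with p204 (the product of Ifi204) also described in osteoblast and muscle differentiation. Aim2, a neighbour of the p200 genes, is the family's inflammasome sensor of cytosolic DNA.

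Levels are given as RPKM, read numbers divided by gene length and library size, which allows genes and libraries to be compared within limits. The 10 most abundant rows held between 10.6% and 11.8% of the summed RPKM in control libraries. In siRNA libraries they held between 17.8% and 20.1%, a difference in composition that RPKM does not correct. Between similar genes, levels also depend on how reads of shared sequence were assigned. The difference between groups is given as the log2 fold change of log2(RPKM + 1), siRNA against control, with its standard error (SE), from limma with trended variance, and a gene was called when its p-value, adjusted by the Benjamini-Hochberg method over the 13266 genes that reached 0.1 RPKM on average, was under 0.05. Because of the pseudocount of 1, this scale understates the fold change of genes with low RPKM. For the PYHIN rows tested, the plain ratio of the group means or the percentage of the control mean kept is therefore given as well. The table lists no read totals. From the steps between low values, the libraries were estimated to hold between 32400000 and 38700000 reads, an estimate that rests on a depth chosen for its match. Tet2 was at 2.57, 4.08 and 3.71 RPKM in control libraries and 0.358, 0.238 and 0.202 RPKM in siRNA libraries, Tet1 was at or under 0.098 RPKM in every library, and the untargeted Tet3 was at 7.03 ± 1.55 RPKM (SD, n = 3) and 7.66 ± 0.767 RPKM (SD, n = 3).

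In control BMMSCs, 6 of the 7 genes were expressed at 19.4 RPKM or more in every library, and all 6 fell in Tet1/Tet2 siRNA-treated BMMSCs to between 7.10% and 22.4% of the control mean. Ifi202b was at or near the lowest listed value in both groups and was not tested. Each of the 6 genes tested was called lower, where 44.5% of all genes tested were called, 29.8% lower and 14.7% higher, and in each the groups did not overlap, as was the case with lower siRNA values for 35.9% of all genes tested. Under a stricter rule that needs a fold change over 2 and a p under 0.05 before adjustment, all 6 again passed, against 5.63% of all genes tested. The control mean was over 4 times the siRNA mean in all 6 genes and in 4.88% of all genes tested, and over 10 times in Ifi205 and Pyhin1 and in 0.927% of all genes tested. The background share depends on the scaling of the libraries, since 66.9% of all called genes were lower as deposited, 50.9% after median ratio scaling and 42.3% after quantile normalization, whereas the 6 genes were called lower under each of these. The median log2 fold change of the 6 genes was -2.80, beside -0.09 over all genes tested. In RNA from a whole culture, fewer cells of a type and less RNA per cell cannot be told apart.

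**Figure D1:**
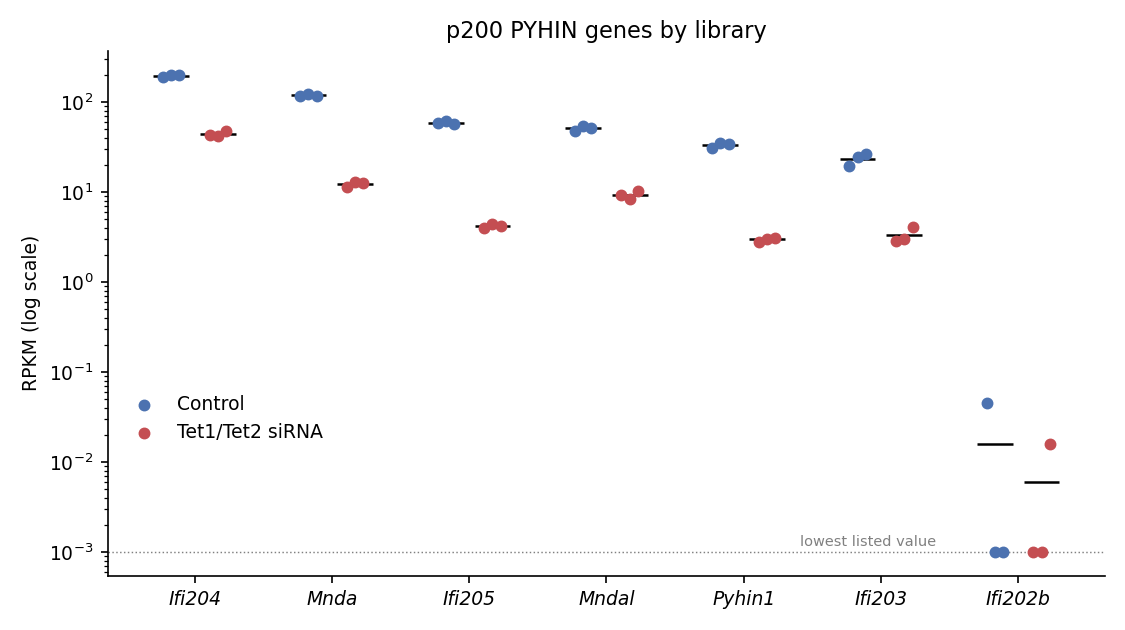
RPKM of the 7 p200 PYHIN genes on a log axis, with 1 point per library (blue, 3 control libraries; red, 3 Tet1/Tet2 siRNA libraries), the group mean as a black bar and the lowest value in the table, 0.001 RPKM, as a dotted line. The red points lie below the blue points for 6 genes, and Ifi202b sits at or near the lowest value in both groups.

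The study was concerned with demethylation of promoters, and interferon-inducible genes often carry an interferon-stimulated response element close to their start, so the promoter sequences of the family were read. RefSeq windows of 300 bases (250 before and 50 after an annotated start, GRCm38.p6) were matched for 6 of the 7 genes, in 8 windows since Ifi203 and Mndal have 2 starts each. Ifi204 was not matched. An 8-base core, AAATNGAA, was found on the gene's strand in 5 of these 6 genes, all except Ifi202b, and in 3 of the 4 other PYHIN rows with a window, all except Aim2. It occurs on that strand in 2.58% of the 32851 windows of all genes. The core was chosen after the windows had been seen, so its frequency here is a description. The 54 bases around it are shown on the gene's strand, with the core in capitals, because they show how closely the expressed members resemble each other and where the core differs by 1 base.
Ifi203, chr1:173942494-173942547, reverse strand: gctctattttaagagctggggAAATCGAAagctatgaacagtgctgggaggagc
Mndal, chr1:173880190-173880243, reverse strand: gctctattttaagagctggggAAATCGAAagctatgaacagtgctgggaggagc
Ifi205, chr1:174031856-174031909, reverse strand: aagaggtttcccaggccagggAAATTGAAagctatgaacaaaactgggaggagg
Mnda, chr1:173913050-173913103, reverse strand: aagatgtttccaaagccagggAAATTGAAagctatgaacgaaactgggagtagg
Pyhin1, chr1:173630760-173630813, forward strand: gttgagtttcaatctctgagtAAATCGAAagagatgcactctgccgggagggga
AI607873, chr1:173741817-173741870, reverse strand: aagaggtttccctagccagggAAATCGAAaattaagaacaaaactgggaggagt
Pydc4, chr1:173599312-173599365, reverse strand: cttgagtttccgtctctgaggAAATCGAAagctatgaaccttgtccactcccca

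The stretch of Pydc3 (chr1:173673587-173673640, forward strand) is identical to that of Pydc4, and those of Ifi203 and Mndal are identical to each other. The core holds a CpG, the dinucleotide at which DNA methylation is placed, in Ifi203, Mndal, Pyhin1, AI607873, Pydc3 and Pydc4, and none in Ifi205 and Mnda. Methylation of these sites was not measured in the data used here.

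Ifi204, which encodes the nucleolar and nuclear protein p204, was the most abundant gene of the family. It lies on the reverse strand at chr1:173747293-173766943 (GRCm38), and its longest annotated transcript has 9 exons. Its level was 191, 202.5 and 200.0 RPKM in control libraries and 42.9, 42.2 and 47.8 RPKM in siRNA libraries. The control libraries lay within a narrow band, and every siRNA library was far below it. The mean fell 4.47-fold, from 198 ± 6.00 to 44.3 ± 3.07 RPKM (SD, n = 3 each), a log2 fold change of -2.14 (0.066 SE, 95% interval -2.29 to -1.98, adjusted p = 5.65e-07 from limma). This was the smallest relative fall of the 6 genes. By mean level it ranked 265 among the genes tested in control libraries and 1694 in siRNA libraries. Of the 100-base stretches of its transcript, 16.8% also occur in a transcript of another gene, mostly that of Mnda, so part of its reads could have been assigned to either gene.

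Mnda, the row that the current annotation names Ifi211, encodes a nuclear protein of the same family and bears the symbol of the human myeloid cell nuclear differentiation antigen. The gene lies at chr1:173896345-173913046 on the reverse strand. Its level was 116, 125 and 117 RPKM in control libraries and 11.3, 13.02 and 12.5 RPKM in siRNA libraries. No siRNA library came near the control range. The ratio of the means was 9.71 and the log2 fold change -3.18 (0.068 SE, adjusted p = 2.04e-07 from limma). Sequence is widely shared here, since 56.9% of its 100-base stretches occur in another gene's transcript and 37.2% occur in Ifi205, which fell still further.

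Ifi205, which encodes the nuclear protein p205 and forms the end of the cluster at chr1:174011998-174031810, showed the largest fall. It was at 58.6, 62.4 and 57.0 RPKM in control libraries and at 3.99, 4.42 and 4.24 RPKM in siRNA libraries. The siRNA libraries lay close to each other and far below each control library. The control mean was 14.1 times the siRNA mean, and the log2 fold change was -3.53 (0.069 SE, 95% interval -3.69 to -3.37, adjusted p = 1.92e-07 from limma). Ifi205 had the lowest p-value of the 13266 genes tested, Mnda the second lowest and Pyhin1 the fifth lowest. Ordered by the fall in log2 fold change, Ifi205 ranked 22, Mnda 33 and Pyhin1 37 among all genes tested. None of the 100-base stretches of the longest Ifi205 transcript occurs in another gene, and the sequence shared with Mnda lies in another transcript of Ifi205.

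Pyhin1, which the annotation names Ifi209, lies apart from the other members towards Aim2, at chr1:173630917-173647928 on the forward strand. Its level was 31.0, 35.0 and 33.9 RPKM in control libraries and 2.76, 3.04 and 3.13 RPKM in siRNA libraries. The siRNA values were again tightly grouped and did not overlap the control values. The mean fell to 8.93% of control, with a log2 fold change of -3.11 (0.080 SE, adjusted p = 3.63e-07 from limma). Its transcript shares 17.9% of its 100-base stretches with Ifi214, a gene with no row under that name among those found.

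Mndal and Ifi203 overlap in the annotation. Mndal (chr1:173849126-173942491) includes transcripts that begin beside the start of Ifi203 (chr1:173920407-173942672), so that 22085 bases are covered by both genes on the same strand, and it also spans all 16702 bases of Mnda. Mndal was at 47.7, 55.0 and 51.0 RPKM in control libraries and 9.31, 8.42 and 10.3 RPKM in siRNA libraries. The groups stood well apart, with a ratio of means of 5.49 and a log2 fold change of -2.34 (0.086 SE, adjusted p = 9.98e-07 from limma). Ifi203, whose product is another nuclear p200 protein, was the least abundant of the 6, at 19.4, 24.6 and 26.6 RPKM in control libraries and 2.87, 3.04 and 4.10 RPKM in siRNA libraries. Control replicate 1 was the lowest control and siRNA replicate 3 the highest treated library, yet the groups did not overlap. Its ratio of means was 7.05 and its log2 fold change -2.50 (0.14 SE, adjusted p = 8.39e-06 from limma), with the widest error of the 6. Few stretches of these transcripts are shared exactly with another gene, 7.63% for Mndal and 3.31% for Ifi203.

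Ifi202b encodes p202, a p200 protein that lacks the PYRIN domain and whose level is known to differ strongly between mouse strains. It lies at chr1:173962568-173982744, between Ifi203 and Ifi205, both of which were expressed. It was at 0.045 RPKM in control replicate 1, at 0.016 RPKM in siRNA replicate 3 and at 0.001 RPKM, the lowest value listed, in the other 4 libraries. At the estimated depth these are about 3 reads, 1 read and no reads. The groups overlapped and no fold change can be given. Expression of Ifi202b was not detectable beyond a few reads in these C57BL/6 cells.

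The 7 genes together made up 464, 504 and 485 RPKM in control libraries and 73.1, 74.1 and 82.0 RPKM in siRNA libraries. The sum was 484.5 ± 19.9 RPKM in the control group and 76.4 ± 4.87 RPKM in the siRNA group (SD, n = 3 each), 6.34 times less, and its share of the summed RPKM of all genes went from 0.117% to 0.0176%. The share of each gene in the sum differed between the groups for most members. Ifi204 made up 40.8% ± 0.586 of the sum in control libraries and 57.9% ± 0.914 in siRNA libraries (SD, n = 3 each). Ifi205 went from 12.3% ± 0.460 to 5.53% ± 0.396, Mnda from 24.6% ± 0.502 to 16.1% ± 1.29 and Pyhin1 from 6.87% ± 0.164 to 3.90% ± 0.179. Mndal moved from 10.6% ± 0.319 to 12.2% ± 0.736, and Ifi203 was at 4.84% ± 0.649 and 4.34% ± 0.573, values that lie within each other's spread.

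**Figure D2:**
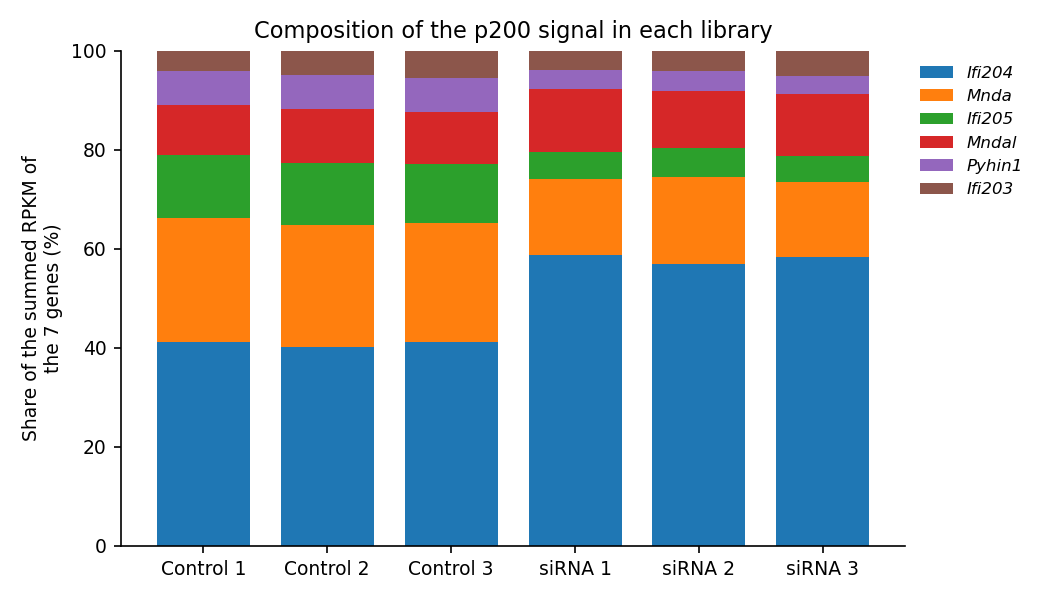
Share of each gene in the summed RPKM of the 7 genes (%), stacked for each of the 3 control and 3 siRNA libraries; Ifi202b, at 0.0195% or less in each library, is not visible and was left out. Ifi204 takes between 40.2% and 41.2% of the control libraries and between 56.9% and 58.6% of the siRNA libraries, and the bands of Ifi205 and Pyhin1 are narrower in the siRNA libraries.

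The order of the levels changed with these shares. In control libraries the order was Ifi204, Mnda, Ifi205, Mndal, Pyhin1, Ifi203 and Ifi202b, and no neighbours in it had overlapping ranges. In siRNA libraries Mndal stood above Ifi205, and Ifi203 above Pyhin1. There the ranges of Ifi205 and Ifi203 overlapped, as did those of Ifi203 and Pyhin1, so the order of these 3 genes was not resolved.

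Whether the genes fell by different factors was examined with the log2 ratio of 2 members within a library, in which the scaling of the library cancels. All 15 pairs among the 6 expressed genes had ratios that did not overlap between the groups. The pairs share the same 6 genes and 6 libraries, so they are not 15 separate results. How often the ratios of other gene pairs do not overlap was not computed. For 3 libraries against 3, a two-sided exact permutation test cannot give a p below 0.1, and each of the 15 pairs reached that value (p = 0.1, adjusted p = 0.1 over the 15 pairs, exact permutation test), so none passes a threshold of 0.05. The largest difference was between Ifi204 and Ifi205, whose log2 ratio was 1.74 ± 0.064 in control libraries and 3.39 ± 0.122 in siRNA libraries (SD, n = 3 each), a difference of 1.65 (standard error 0.080) or 3.15-fold. Mnda and Pyhin1 kept their proportion most closely, with a log2 ratio of 1.84 ± 0.061 in control libraries and 2.04 ± 0.052 in siRNA libraries, a difference of 0.20 (standard error 0.046). The ratio of Ifi204 to Mndal differed by 0.30 (standard error 0.053). As a description of the group means only, Ifi205, Pyhin1 and Mnda kept 7.10%, 8.93% and 10.3% of their control means. Ifi203 kept 14.2%, Mndal 18.2% and Ifi204 22.4%.

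The table holds 6 further rows of the PYHIN family that are not among the 7 genes, and all 6 were called lower. AI607873 (annotated as Ifi207) was close to Mnda in level in control libraries, at 119, 138 and 145 RPKM, and at 54.2, 50.5 and 61.1 RPKM in siRNA libraries, which gave a log2 fold change of -1.26 (0.096 SE, adjusted p = 3.28e-05 from limma). Its groups did not overlap, but it kept 41.3% of its control mean, more than any of the 6 p200 genes tested. Pydc4 (annotated as Ifi213) was at 15.9, 17.9 and 18.7 RPKM in control libraries and at 0.043, 0.297 and 0.25 RPKM in siRNA libraries, the last about 5, 36 and 27 reads at the estimated depth. It was nearly lost from the siRNA libraries, with a log2 fold change of -3.95 (0.11 SE, adjusted p = 5.16e-07 from limma), larger than that of Ifi205, and a ratio of means of 88.9. BC094916, which could not be matched to a position, was at 7.57 and 0.615 RPKM in the group means, a ratio of 12.3, with a log2 fold change of -2.41 (adjusted p = 5.62e-06 from limma). Gm16340, annotated as the pseudogene Ifi203-ps, was at 5.99 and 0.739 RPKM (ratio 8.11, log2 fold change -1.98, adjusted p = 0.000104 from limma), and 4.93% of its stretches also occur in Ifi203. Pydc3 (annotated as Ifi208) was at 0.695, 0.754 and 0.989 RPKM in control libraries and 0.001, 0.041 and 0.011 RPKM in siRNA libraries, a low level at which the log2 fold change of -0.83 (adjusted p = 7.89e-05 from limma) understates the ratio of the means, 46.0. Pydc3 reached the minimum of 0.1 RPKM only because of its control values.

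Aim2 showed the smallest log2 fold change of the PYHIN rows tested. It was at 8.93, 9.95 and 9.98 RPKM in control libraries and 8.28, 7.08 and 8.13 RPKM in siRNA libraries. The groups did not overlap, but they lay close to each other and Aim2 kept 81.4% of its control mean. Its log2 fold change was -0.27 (0.088 SE, 95% interval -0.47 to -0.06, adjusted p = 0.0381 from limma), an interval that ends far above those of the 6 p200 genes, the nearest of which is that of Ifi204. The call of Aim2 was lost in 9 of 17 alternatives: adjusted p was 0.128 with no filter on low values, 0.163 after median ratio scaling, 0.334 after quantile normalization, between 0.0534 and 0.140 in 5 of the 6 fits that left out 1 library (all but the one without control replicate 1), and it did not reach a fold change of 2.

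**Figure D3:**
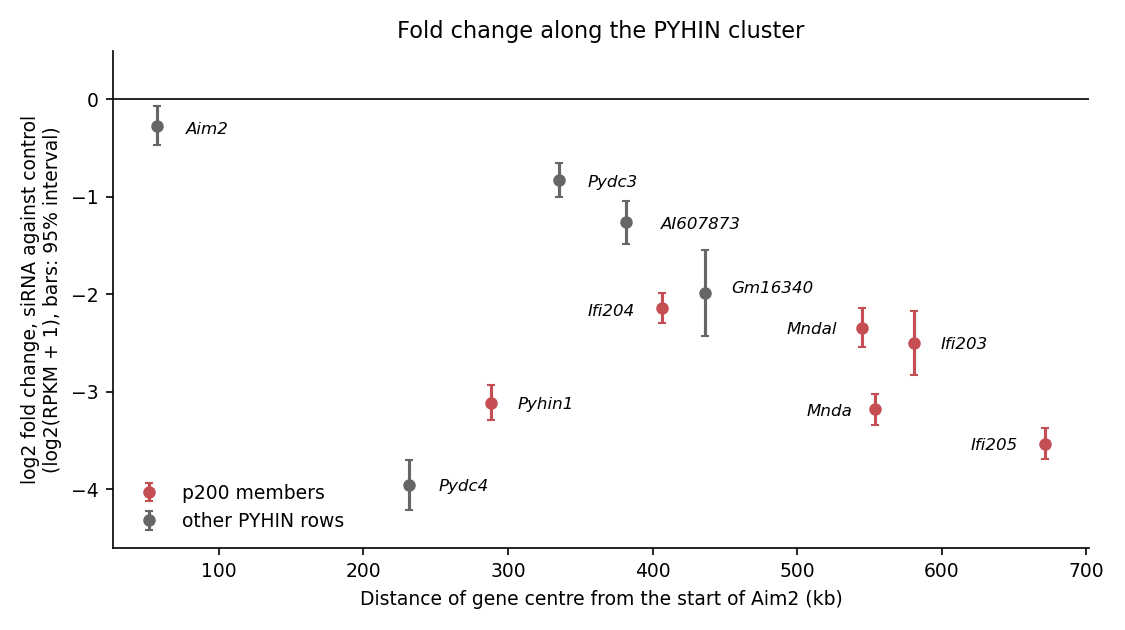
Log2 fold change, siRNA against control, with its 95% interval from limma (vertical axis) against the distance of the gene's centre from the start of Aim2 in kb (horizontal axis), for the 6 p200 genes tested (red) and the 5 other PYHIN rows with a position (grey). Aim2 at one end is at -0.27, Ifi205 at the other end is at -3.53, and genes with large and small falls lie next to each other between them. The scale, log2(RPKM + 1), understates falls at low RPKM: Pydc3, at -0.83 here, kept 2.17% of its control mean.

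Along the cluster of 680.9 kb (chr1:173350879-174031810) the size of the fall did not follow position in one direction. From Aim2 onward the genes are Pydc4, Pyhin1, Pydc3, AI607873, Ifi204, Gm16340, Mndal, Mnda, Ifi203, Ifi202b and Ifi205. By the percentage of the control mean kept, which has no pseudocount, Pydc3 (2.17%) fell further than its neighbours Pyhin1 (8.93%) and AI607873 (41.3%). Ifi204 and AI607873, neighbours on the same strand, were the 2 rows with the highest control levels in the cluster and had small relative falls beside Pyhin1 and Pydc4. Pyhin1, Pydc3 and Aim2 are on the forward strand and the others on the reverse strand, and each strand held genes with large and small falls.

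The genes around the cluster were compared next. Of 16 genes found within or flanking it (Aim2 among them), 8 could be tested, 4 were called lower and 1 higher, and the median log2 fold change was -0.22. Slamf9, a SLAM family receptor gene beyond Aim2, fell from 32.2 to 12.7 RPKM (log2 fold change -1.27, adjusted p = 8.05e-05 from limma). Slamf8, of the same receptor family, fell from 1.18 to 0.505 RPKM (log2 fold change -0.53, adjusted p = 0.00417 from limma, and 0.0686 with no filter on low values). Kcnj10, a potassium channel gene further out, rose from 0.0613 to 0.910 RPKM (log2 fold change 0.85, adjusted p = 6.12e-05 from limma). Its control mean is under the minimum of 0.1 RPKM, so Kcnj10 was tested only because of its siRNA values. Tagln2, the most abundant of them, was at 326 and 299 RPKM (log2 fold change -0.12, adjusted p = 0.282 from limma). The genes next to Aim2 on its outer side, Cadm3 and Ackr1, were each at or under 0.023 RPKM in every library and could not be tested.

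The promoter stretches shown above were then set beside the falls. The 2 expressed genes whose core lacks the CpG, Ifi205 and Mnda, kept 7.10% and 10.3% of their control means. The members with the CpG kept between 8.93% and 18.2%. Of the other PYHIN rows with it, Pydc4 kept 1.12%, Pydc3 2.17% and AI607873 41.3%. Whether this CpG bears on the falls was not tested.

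The element searched for by its general form, GAAANNGAA on either strand, occurs in 8.56% of all windows and in 9.76% of 27025 genes. It was found in 4 of the 6 members with a window, at position -35 in Ifi203, -36 in Mndal, -37 in Mnda and -134 in Ifi205, counted from the annotated start, and it overlaps the 8-base core in each. Ifi205 has a further match on the opposite strand at 25 and Mndal has one at -53 of its other start. Pyhin1, which fell to 8.93% of control, holds the core but no match to this form, and Ifi202b, which was at or near the lowest listed value, has neither. Of the other rows, AI607873 (-41), Pydc3 (-58) and Pydc4 (-73) hold it and Aim2 does not. Among the 14 of 18 other interferon-stimulated genes with a window, 10 hold it. A match describes the letters in the window and does not show that a factor binds there.

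The gamma-activated site, TTCNNNGAA on either strand, is in 8.30% of all windows and was found only in Ifi202b among the 7 genes' windows (at -148). The letters TATAAA, on either strand, are in 13.6% of all windows and in 3 of the 6 members with one, Ifi202b, Ifi205 and Pyhin1. The windows of the members hold between 1 and 5 CpGs, where the median over all windows is 7 and the quartiles are 3 and 20. Ifi202b, with 5, has the most, and the windows of the 5 expressed members have between 1 and 3. Over the whole window, Ifi203 and Mndal are 90.7% identical, Mnda and AI607873 85.9%, and Pydc3 and Pydc4 89.5%, whereas the next pair, Pyhin1 and Pydc3, reaches 57.7%. The closely similar windows of AI607873 and Mnda stood beside unequal falls, to 41.3% and 10.3% of the control mean.

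**Figure D4:**
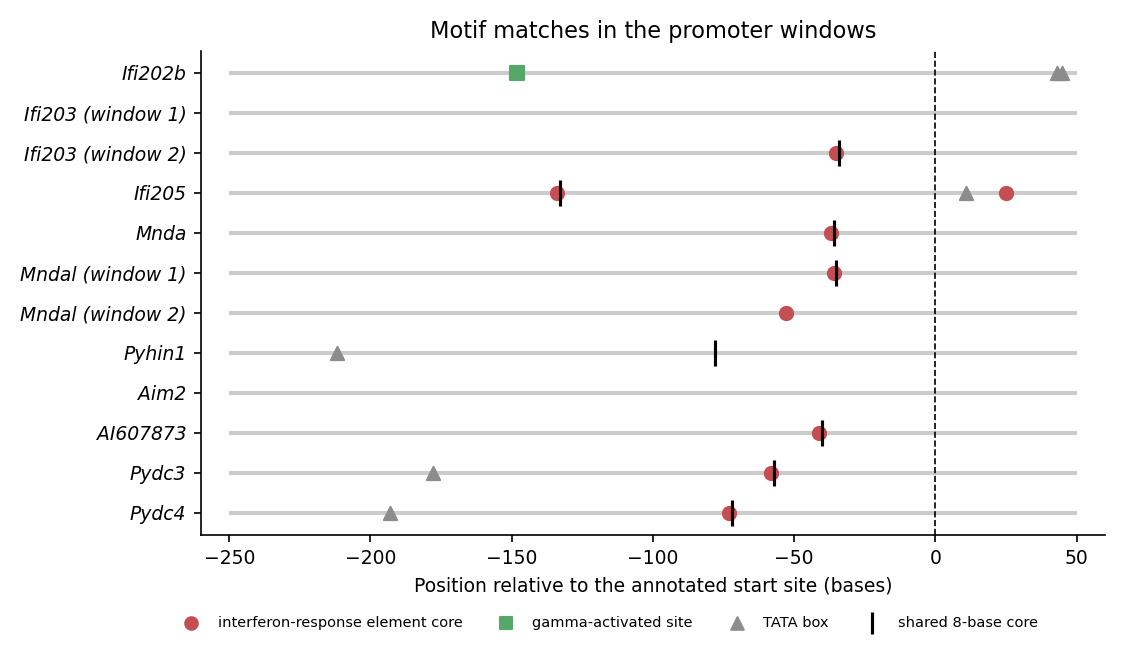
Position of motif matches relative to the annotated start site (bases, dashed line at the start) in the 300-base promoter windows of 6 p200 genes and 4 other PYHIN rows: red circles, interferon-response element core; green square, gamma-activated site; grey triangles, TATA box letters; black ticks, the shared 8-base core. The red circles lie between -73 and -35 in 6 genes and at -134 and 25 in Ifi205, with a further match at -53 of the other Mndal start, and Aim2 has no match.

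The pathways that act before and beside the p200 proteins were described with gene lists. Of 14 genes of interferon signalling that could be tested, 7 were called lower, 1 higher and 6 were not called, and the list had a median log2 fold change of -0.41. The factors that carry the interferon signal to DNA were among those that fell: Stat2 from 83.5 to 18.3 RPKM (log2 fold change -2.13), Irf9 from 35.5 to 15.5 (-1.14) and Irf1 from 36.5 to 18.3 (-0.96). Jak2, a kinase of the interferon-gamma receptor, fell (-0.80), as did the inhibitors Socs1 (-0.87) and Usp18 (-4.33). The receptor gene Ifnar1 rose (0.37), and Ifnar2, Ifngr1, Ifngr2, Jak1, Tyk2 and Irf8 were not called. The number called lower was 7 under each scaling, whereas 4 genes were called higher after median ratio scaling (Ifnar1, Ifngr1, Jak1 and Irf8) and 5 after quantile normalization (these and Tyk2). Transcripts of the ligands were scarce, with group means of 0.133 and 0.012 RPKM for Ifnb1 and 0.001 and 0.015 RPKM for Ifng, and neither could be tested.

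Among other interferon-stimulated genes, 18 of 18 were called lower and 18 of 18 passed the stricter rule, with a median log2 fold change of -3.39. Ifit3, which encodes an antiviral RNA-binding complex protein, had the largest log2 fold change on the log2(RPKM + 1) scale (from 103 to 2.40 RPKM, -4.99), followed by the ubiquitin-like modifier Isg15 (from 118 to 4.78 RPKM, -4.40). By the plain ratio of the means the order differed, with Iigp1 at 80.2-fold and Ifi44 at 59.6-fold ahead of Ifit3 at 43.0-fold, and Isg15 at 24.7-fold. The 6 p200 genes, with log2 fold changes between -3.53 and -2.14, lay within the range of these 18 genes, which ran from -4.99 to -1.67.

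Of 15 genes for cytosolic DNA sensing and inflammasomes that could be tested, 10 were called lower and 5 were not called, with a median log2 fold change of -0.64. Irf7, a master regulator of type I interferon genes, fell from 272 to 7.81 RPKM (log2 fold change -5.05) and the nucleic acid sensor Zbp1 from 52.0 to 2.99 RPKM (-3.73). The nuclease gene Trex1 (-1.77), the dNTP hydrolase gene Samhd1 (-1.06), the DNA sensor cGAS (Mb21d1, -1.09), its adaptor STING (Tmem173, -0.64) and the kinase Ikbke (-0.64) also fell, as did Casp4 (-1.01), Casp1 (-0.54) and Il18 (-0.45). Tbk1, Irf3, Ddx41, Pycard and Gsdmd were not called, and Ddx41 was called higher after median ratio scaling or quantile normalization.

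For genes whose products are reported to bind p202 or p204 or to be regulated by them, 9 of 19 tested were called lower and 3 higher (8 lower and 5 higher after median ratio scaling or quantile normalization), and the median log2 fold change was -0.09, the same as that of all genes. Runx2, the osteoblast transcription factor that p204 is reported to bind, fell from 1.70 to 0.136 RPKM (log2 fold change -1.23, adjusted p = 0.000133 from limma), and the differentiation inhibitor Id1 fell from 96.4 to 43.7 RPKM (-1.12, adjusted p = 3.48e-05 from limma). The ratio of the control to the siRNA mean was 12.5 for Runx2, whose level was low, and 2.21 for Id1. The retinoblastoma relative Rbl2 rose from 9.84 to 13.5 RPKM (0.41, adjusted p = 0.00203 from limma). Id2 was at 223 and 283 RPKM (0.34, adjusted p = 0.0427 from limma), a call lost in 4 of the 6 fits without 1 library, namely control replicate 1 or 3 or siRNA replicate 1 or 2, where adjusted p lay between 0.0566 and 0.147.

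**Figure D5:**
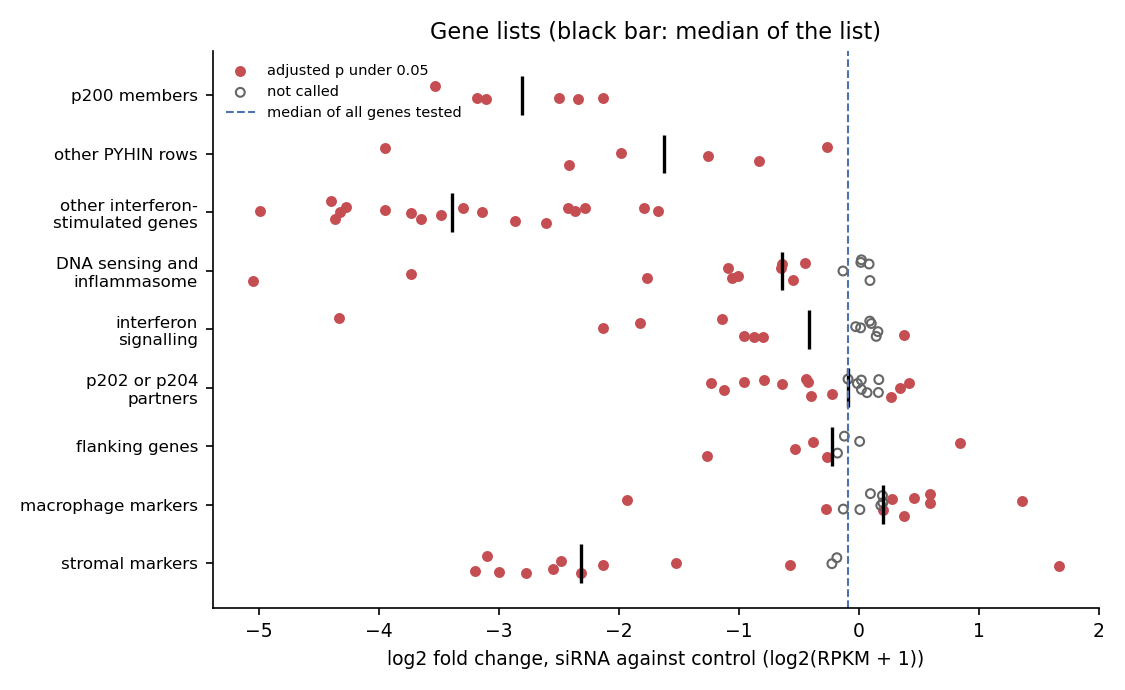
Log2 fold change, siRNA against control, of every gene tested in each list (filled red, adjusted p under 0.05 from limma; open, not called), with the list's median as a black bar and the median of all genes tested as a dashed line. The p200 genes lie between -3.53 and -2.14, within the range of the other interferon-stimulated genes, and the macrophage markers lie mostly near or above 0. Vertical scatter within a list only separates the points.

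The cell types in the cultures were checked with marker lists, since the p200 genes are known from blood cells. Macrophage markers were abundant in these adherent marrow cultures. Their summed level was between 8366 and 10770.3 RPKM in control libraries and between 15980 and 18933 RPKM in siRNA libraries, and of 15 markers 2 were called lower and 7 higher (1 lower and 9 higher after median ratio scaling, 1 lower and 7 higher after quantile normalization). Lyz2 made up between 42.4% and 46.7% of the sum in control libraries and between 61.6% and 67.2% in siRNA libraries, and without it the mean sum was 5336 and 6246 RPKM, a ratio of 1.17. It rose from 4439 to 11321 RPKM, a call lost after quantile normalization. The receptor Csf1r rose from 499.5 to 604 RPKM, and the pan-leukocyte marker Ptprc was at 52.6 and 53.0 RPKM. Cd163, a scavenger receptor gene, rose from 5.71 to 9.19 RPKM. The Fc receptor gene Fcgr1 fell from 109 to 27.8 RPKM and the mannose receptor gene Mrc1 was at 170.2 and 141 RPKM. Stromal markers moved the other way, with sums between 1677 and 2221 RPKM in control libraries and between 289 and 520.5 RPKM in siRNA libraries, and 10 of 13 tested were called lower and 1 higher. The collagen genes Col1a1 and Col3a1 fell from 488 to 72.1 RPKM and from 125 to 14.1 RPKM, and Ly6a, the gene of the Sca-1 antigen, fell from 152 to 16.4 RPKM, while Vcam1 rose from 16.9 to 55.9 RPKM. The defining stromal marker Thy1 was at 0.061 and 0.059 RPKM and Lepr at 0.0627 and 0.022 RPKM, under the minimum for a test. Nt5e and Mcam were low as well, at 0.911 and 1.31 RPKM in control libraries. All other stromal markers had control means of at least 9.92 RPKM, the value of Pdgfra, which was at 0.944 RPKM in siRNA libraries. The paper reports flow cytometry of BMMSCs from control and Tet1/Tet2 knockout mice, not of these libraries. Those cells were positive for CD90 (Thy1), CD73 (Nt5e), CD105 (Eng), Sca1 (Ly6a) and PDGFR, and negative for CD45 (Ptprc) and CD34. Control means of these genes here were 152 (Ly6a), 23.8 (Eng), 9.92 (Pdgfra), 0.911 (Nt5e), 0.061 (Thy1) and 52.6 RPKM (Ptprc). The fold of the p200 sum (6.34) thus stood beside a fall of stromal markers and a higher sum of macrophage markers, and the part of either in the result was not tested.

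Markers of other blood and vessel cells were low. The summed level of the neutrophil list was between 3.39 and 3.54 RPKM in control libraries and between 9.27 and 16.2 RPKM in siRNA libraries, with S100a8 called higher (1.95 and 12.7 RPKM), Camp called lower (1.45 and 0.058 RPKM) and S100a9 at the lowest listed value throughout. Camp reached the minimum of 0.1 RPKM only because of its control values. T and NK cell markers summed to between 2.42 and 2.71 RPKM and between 7.61 and 8.71 RPKM, nearly all of it Cd4, with Ncr1 at the lowest value in every library. B cell markers summed to at most 1.34 RPKM, endothelial markers to at most 2.58 RPKM and erythroid markers to at most 0.221 RPKM in any library. Cd79b (0.533 and 1.14 RPKM) and Pecam1 (0.175 and 0.377 RPKM) were called higher and Kdr (1.58 and 0.604 RPKM) lower. Their part in the p200 result was not tested.

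The genes whose profile over the 6 libraries was most like that of the summed p200 genes were sought among genes that averaged 1 RPKM or more. These were 11050 genes including the 6 expressed members, which were left out of the search for the sum. Likeness was measured by the root mean square difference of log2 values centred on the control mean. The nearest was Ddx58, which encodes the RNA sensor RIG-I, with a difference of 0.0675, followed by the metalloproteinase gene Mmp3 (0.0926), Parm1 (0.0983), the interferon-inducible GTPase gene Ifi47 (0.111) and the oncostatin M receptor gene Osmr (0.126). Ddx58 fell 6.18-fold, from 40.2 to 6.50 RPKM. By single members, Ifi204 was nearest to Stat2 (0.0730), Mndal to the MHC class I gene H2-T24 (0.0737), Ifi203 to Gm4070 (0.115) and Ifi205 to Plac8 (0.130). Mnda and Pyhin1 were nearest to each other (0.129), although they lie apart from each other in the cluster, with Ifi204 and other rows between them.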

How the data were processed

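RNA-seq was performed on total RNA of 3 control and 3 Tet1/Tet2 siRNA-treated BMMSC samples with paired-end reads. After adaptor trimming, the authors used DNASTAR Lasergene 15.0 for mapping to GRCm38 and for abundance. Their deposited table gives linear RPKM (FPKM in the methods) and a p-value column of the authors' own comparison that was not used here. Strandedness of the counting and the treatment of multi-mapping reads are not given in the sources used here, so paralogs with near-identical sequence have uncertain values.

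For each of 37 symbols listed more than once, only the row with the largest mean was used. Two-sided tests were run with limma 3.58.1 in R 4.3.3 on log2(RPKM + 1), with Benjamini-Hochberg adjustment over the 13266 genes tested. On simulated data for this comparison, with 13266 genes, limma recovered 200 of 200 changed genes. Pair ratios were tested by exact permutation (scipy 1.17.1), and levels, sequences and depth were handled in Python 3.11.15 (pandas 2.3.3, numpy 2.4.6, biopython 1.88) with GENCODE M21 and RefSeq tables. At the estimated depth, between 55.9% and 57.6% of low values of genes with 1 transcript lay within 0.1 of a whole read, so no count test was run. Shared sequence was the percentage of 100-base windows of a gene's longest transcript present in a transcript of another gene.

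The 7 members, the gene lists and the tests were chosen with earlier results of these data known. All members and PYHIN rows are named, and of each list the 2 largest decreases and increases among called genes, with every called gene of the DNA-sensing and interferon-signalling lists, apart from items that are not reported here. Further genes given as values for markers or neighbours were chosen after their values were seen. Both groups carry replicate numbers 1, 2 and 3 in their labels. Same-numbered libraries deviated from their group means together over the genes tested (r = 0.149, 0.117 and 0.462), each above 0.1, and an alternative fit therefore used the numbers as pairs. The pairing rests on these values alone, and control 1 with siRNA 2 (0.332) and control 2 with siRNA 1 (0.205) were higher than replicates 1 and 2 with their own numbers. Across genes, r lay between 0.992 and 0.997 within groups and between 0.949 and 0.969 across groups. Alternatives were pseudocounts of 0.1 and 0.01, other filters, 3 scalings, limma without trend, the replicate block, each library left out, the fold rule and the sum of repeated rows.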

Additional observations from a re-analysis of the deposited data

How the results depend on the processing

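All 6 p200 genes tested stayed called lower under each of the 17 alternatives run, with a highest adjusted p of 0.00409 (Ifi203, from limma), and with log2 fold changes from -2.20 to -2.02 for Ifi204, from -3.81 to -3.42 for Ifi205, from -3.28 to -3.07 for Mnda, from -2.46 to -2.21 for Mndal, from -3.48 to -2.95 for Pyhin1 and from -2.82 to -2.34 for Ifi203. No result of those recomputed changed direction. With the replicate block, which uses the pairing of the replicate numbers, 6 members were called, and the block changed no call of a member or other PYHIN row. It gave 13 called genes in the p202 and p204 partner list, against 12 without it. The log2 ratio of the summed genes was -2.66 as deposited, -2.55 after median ratio scaling, -2.57 after quantile normalization and between -2.72 and -2.63 with 1 library left out. Over all genes, the median log2 fold change was -0.09 as deposited and 0.06 after quantile normalization, a shift that is small beside the falls of the 6 genes. The list of flanking genes had 5 called genes, and 2 with no filter, 2 with a mean of at least 1 RPKM, 3 after quantile normalization and 1 under the fold rule; the cause was not tested. The fold rule, which asks for a larger change by its construction, left 6 of the 10 called DNA-sensing genes, 4 of the 8 called interferon-signalling genes and 2 of the 12 called genes of p202 and p204 partners. Leaving out 1 library moved the number of called genes over all genes from 5905 to between 4420 and 6150, and leaving out the filter gave 3744. Depth limits Ifi202b, at about 3 reads or fewer in a library, and the low siRNA values of Pydc3. With 3 libraries a group, single values were not examined for outliers.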
